A study of Ursus arctos with 12 samples.

Results

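The genes described are the kinases of the mitogen-activated protein (MAP) kinase cascade and the dual-specificity phosphatases (DUSPs) in the skeletal muscle of the brown bear. They were chosen by symbol, as every gene of the count table named MAPK, MAP2K, MAP3K, MAP4K or DUSP followed by a digit, without the genes of MAP kinase-interacting proteins whose symbols only begin in this way. Among the MAP3K genes this takes in MAP3K7CL, which has such a symbol but no kinase domain. Among the 30249 genes of the table, 67 had such a symbol and 62 of these had at least 30 reads summed over the 12 libraries, the minimum set for a test. These 62 were 5 MAP4K, 18 MAP3K, 7 MAP2K, 12 MAPK and 20 DUSP genes. The other 5 were DUSP15 with 13 reads in all, DUSP9 with 1 read, and MAP3K19, DUSP21 and MAPK15 with 0 reads.

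The animals were free-ranging brown bears (Ursus arctos) of 2 to 3 years that received no treatment. Each of 6 bears, known by the numbers 1305, 1316, 1317, 1509, 1511 and 1512, was biopsied in the vastus lateralis muscle of the thigh during hibernation (winter) and again in the active period (summer), under anaesthesia after capture. RNA-seq reads were counted per gene in each of the 12 libraries, so winter was compared with summer within bears, and season cannot be told apart from anything else that differed between the winter and summer captures.

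In the cascade, a MAP3K phosphorylates a MAP2K, which phosphorylates a MAP kinase on a threonine and a tyrosine, and some MAP4Ks act above the MAP3Ks. The MAP kinases comprise the extracellular-signal-regulated kinases (ERK), which answer mainly to growth factors, and the Jun N-terminal kinases (JNK) and p38 kinases, which answer mainly to stress and cytokines. Several DUSPs, the MAP kinase phosphatases, remove both phosphates and so switch the kinases off, and others act on different substrates. In muscle these routes take part in the response to contraction, growth and wasting. The libraries measure transcripts, so neither phosphorylation nor kinase activity is described here.

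Between 16742406 and 32140160 reads were counted per library, and 0.192 to 0.234% of them fell on the 62 genes. Markers of muscle fibres were abundant in both seasons, with a summed level in CPM (reads scaled to the library's size) of 127600 to 213700 in summer and 140900 to 183400 in winter, and 2 of 11 markers were called higher in winter and 3 lower. Several markers of other cells of the muscle were lower in winter. Fibroblast and matrix markers were called lower in 9 of 10, and their summed level ran from 4277 to 11510 CPM in summer and from 290.2 to 1715 CPM in winter. Endothelial markers were called lower in 6 and higher in 1 of 10 (691.3 to 1005 CPM against 474.8 to 547.6 CPM), smooth muscle and pericyte markers lower in 6 of 10 (706.9 to 874.9 CPM against 475 to 576.6 CPM) and macrophage markers lower in 7 of 10 (106 to 162.8 CPM against 44.97 to 88.08 CPM). The summed levels overlapped between seasons for markers of lymphocytes (2 of 9 lower, 1 higher), blood (1 of 4 lower), adipocytes (2 of 8 lower), Schwann cells (2 of 7 lower) and satellite cells (3 of 5 lower). CD8A, CD4, EPB42, AHSP, LEP, PCK1, SOX10 and CALCR had no read in at least 1 library. In such bulk samples fewer cells of a type and less RNA per cell cannot be told apart, and the part of these shifts in the differences below was not tested.

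Across the cascade, 9 of the 62 genes were higher and 11 lower in winter, and 42 did not pass the test. The test was edgeR's quasi-likelihood test with the bear as a block and Benjamini-Hochberg adjustment over the 17290 genes tested, with a call at an adjusted p below 0.05. Of all genes tested, 19.6% were called higher and 21.2% lower. The share of the 62 genes called in either direction was 32.3%, against 40.8% of all genes, so the set as a whole was not called more often than the rest of the transcriptome. The median log2 fold change of winter over summer was 9.34e-05 over the 62 genes and −0.005 over all genes. Levels did not overlap between seasons for 9 of the 62 genes, against 17.3% of all genes, and 22 moved in the same direction in all 6 bears, against 37.4% of all genes. Calls in both directions were found among the MAP4Ks (1 higher, 1 lower), the MAP3Ks (6 higher, 3 lower) and the DUSPs (2 higher, 2 lower), whereas 3 MAP2Ks and 2 MAPKs were lower and none of either was higher. The medians of the log2 fold changes were 0.19 for the MAP4Ks, 0.24 for the MAP3Ks, 0.02 for the MAP2Ks, −0.20 for the MAPKs and −0.07 for the DUSPs. At an unadjusted p below 0.05, 1 MAP2K and 0 MAPKs were higher, and DESeq2 called 0 MAPKs higher with or without the block and, without it, 1 MAP2K. A difference between tiers was not tested.

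**Figure D1:**
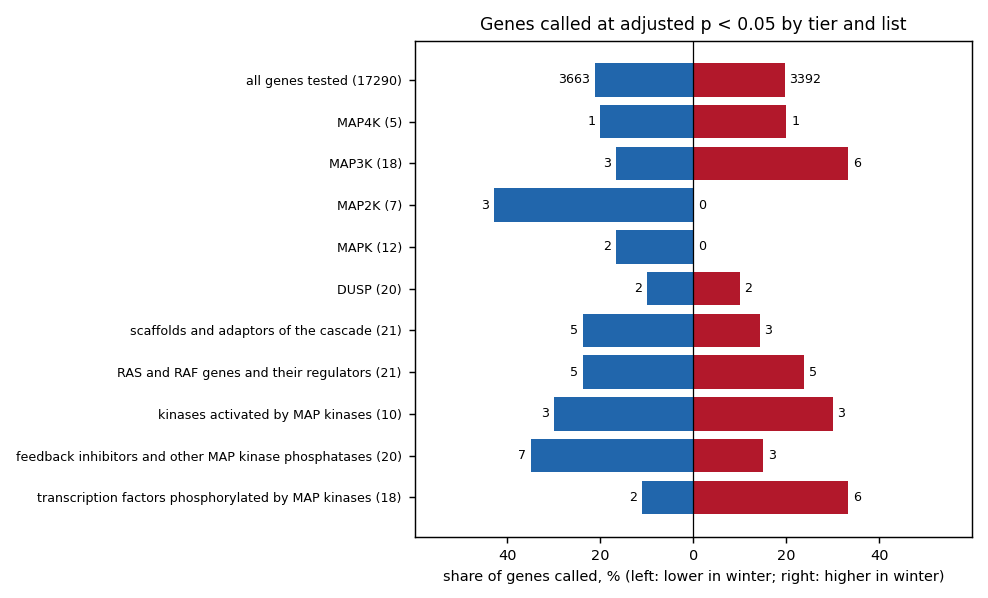
Share of the tested genes called lower (left of 0) or higher (right of 0) in winter, in percent, for all 17290 genes, for each tier and for 5 other lists of the pathway, with the number of genes in parentheses and the number called at the end of each bar. The MAP3Ks had 6 of 18 genes higher and 3 lower, and the called MAP2Ks (3 of 7) and MAPKs (2 of 12) were lower. Of all genes, 19.6% were called higher and 21.2% lower, and a difference between tiers was not tested.

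**Figure D2:**
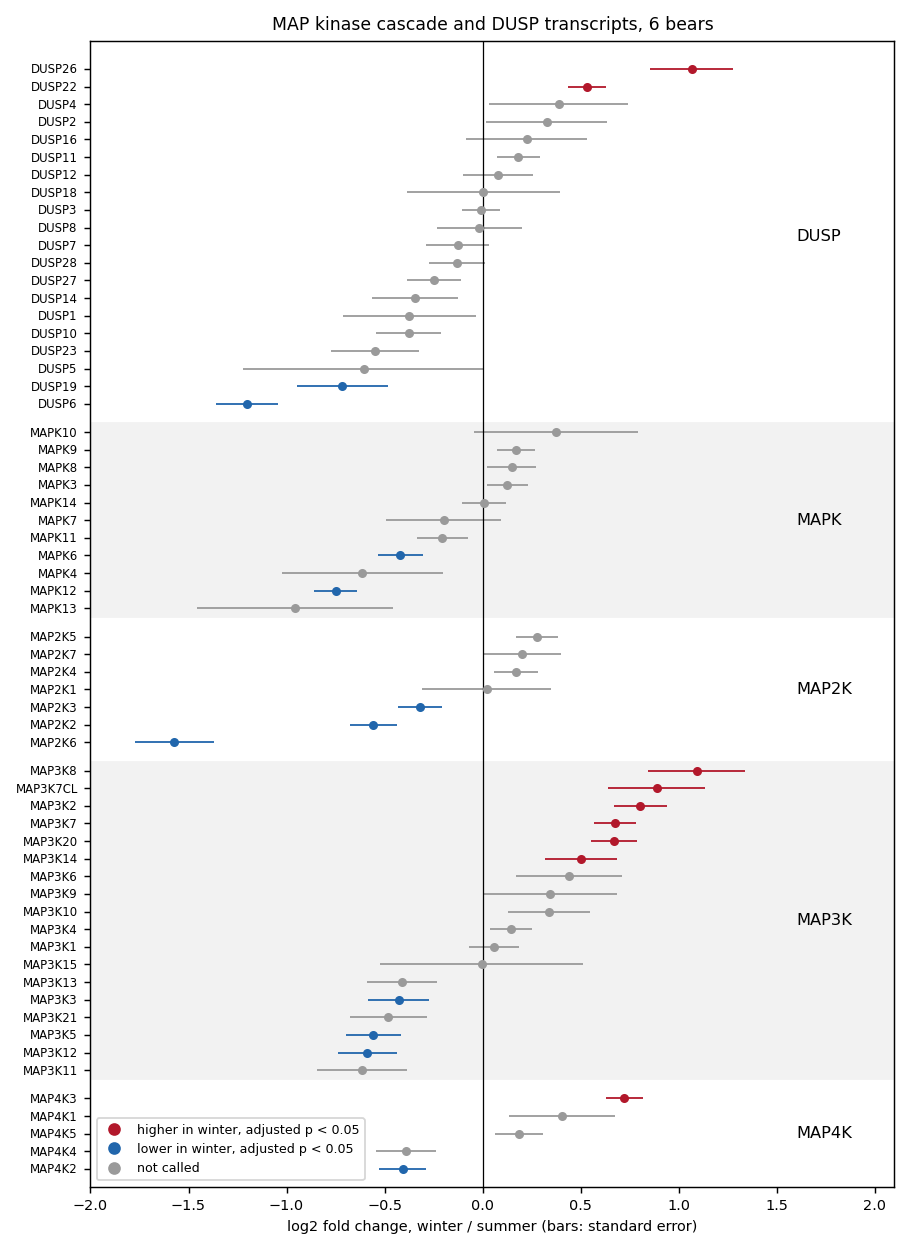
Winter over summer log2 fold change of 61 of the genes by tier, from the edgeR fit with the bear as a block, with bars of 1 standard error and coloured points for genes called at an adjusted p below 0.05. Values run from −1.57 for MAP2K6 to 1.09 for MAP3K8.

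Of the 5 MAP4K genes, MAP4K3 was higher and MAP4K2 lower in winter, a share of 40% called against 40.8% of all genes. MAP4K3, a kinase that acts towards JNK and also takes part in amino acid signalling to mTORC1, had levels of 4.84 to 5.27 log2 CPM in summer (median 5.09) and of 5.53 to 5.95 in winter (median 5.86). Every winter library lay above every summer library, and the 6 bears differed by 0.59 to 0.95 on the log2 scale. The fitted change was 1.65-fold (log2 fold change 0.72, SE 0.09, adjusted p = 0.000241 by edgeR). MAP4K2, the germinal centre kinase, had levels of 3.07 to 3.93 log2 CPM in summer (median 3.42) and of 2.70 to 3.33 in winter (median 3.10). It was lower in all 6 bears, although the seasons overlapped, with a fold of 0.754 (SE of the log2 fold change 0.12, adjusted p = 0.0202), and the adjusted p was 0.0513 without the block. MAP4K4 gave a log2 fold change of −0.39 (SE 0.15, adjusted p = 0.0646), and this became −0.53 with an adjusted p of 0.0115 when bear 1316 was left out. MAP4K5 gave 0.19 (adjusted p = 0.244). MAP4K1, known mainly from blood cells, had few reads (8 to 27 per library), with levels of −1.09 to 0.10 log2 CPM in summer (median −0.69) and of −0.50 to 0.15 in winter (median −0.30), and did not pass the test (log2 fold change 0.41, SE 0.27, adjusted p = 0.252).

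Of the 18 MAP3K genes, 6 were higher and 3 lower, a share of 50% called against 40.8% of all genes. MAP3K7, or TAK1, the kinase downstream of TGF-β and cytokine receptors, had levels of 4.20 to 4.61 log2 CPM in summer (median 4.46) and of 4.91 to 5.25 in winter (median 5.15). The seasons did not overlap, and the level was 1.6-fold higher in winter (log2 fold change 0.68, SE 0.11, adjusted p = 0.000794), with a rise of 0.38 to 0.95 per bear. MAP3K20, or ZAK, a kinase that senses stalled ribosomes, had levels of 8.20 to 8.66 log2 CPM in summer (median 8.39) and of 8.66 to 9.34 in winter (median 9.10). Its rise was seen in all 6 bears with the seasons just apart (1.59-fold, log2 fold change 0.67, SE 0.12, adjusted p = 0.00127). MAP3K2, which acts above the MAP2Ks of the JNK and ERK5 routes, had levels of 4.73 to 5.28 log2 CPM in summer (median 5.08) and of 5.28 to 6.10 in winter (median 5.94). It rose by 0.14 to 1.08 on the log2 scale in the 6 bears (1.75-fold, SE of the log2 fold change 0.13, adjusted p = 0.00101), and the bear with the smallest rise had a winter level at the upper edge of the summer range.

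MAP3K8, or TPL2, an ERK-activating kinase of inflammatory signalling, had the greatest rise of the 62 genes, with a log2 fold change of 1.09 (2.13-fold, SE 0.25, adjusted p = 0.00524), on 56 to 284 reads per library. Its levels were 1.35 to 1.90 log2 CPM in summer (median 1.6) and 1.96 to 4.01 in winter (median 2.17). The winter rise was uneven, since bears 1317 and 1316 lay at 4.01 and 3.58 log2 CPM and the other winter libraries at 1.96 to 2.2, and without bear 1317 the log2 fold change was 0.87. The summed level of the macrophage markers was lower in winter (above), and its part in this value was not tested. MAP3K7CL, which shares its name with MAP3K7 but holds no kinase domain, was 1.85-fold higher (SE of the log2 fold change 0.25, adjusted p = 0.0154), with differences of 0.25 to 2.24 per bear, and the adjusted p was 0.0591 without bear 1305. MAP3K14, or NIK, the kinase of non-canonical NF-κB signalling, was higher in 5 of 6 bears (1.42-fold, SE 0.18 on the log2 scale, adjusted p = 0.0488). The call of MAP3K14 was lost with library totals (adjusted p = 0.0928) and on leaving out bears 1305, 1316, 1317, 1511 or 1512 in turn, with adjusted p of 0.0632 to 0.166.

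The 3 MAP3Ks that were lower in winter were MAP3K5, MAP3K12 and MAP3K3. MAP3K5, or ASK1, a kinase held in check by thioredoxin, had levels of 2.56 to 3.90 log2 CPM in summer (median 3.29) and of 2.38 to 3.02 in winter (median 2.61), and was lower in all 6 bears with a fold of 0.679 (SE 0.14 on the log2 scale, adjusted p = 0.00906). MAP3K12, or DLK, best known from neurons, fell from 1.85 to 2.59 log2 CPM in summer (median 2.46) to 1.07 to 2.15 in winter (median 1.87), with a fold of 0.665 (SE 0.15, adjusted p = 0.00975). For both genes the ranges of the seasons overlapped. MAP3K3, or MEKK3, known for its role in endothelium, had levels of 4.28 to 5.27 log2 CPM in summer (median 4.51) and of 3.99 to 4.25 in winter (median 4.17), which just failed to overlap. Its call was close to the threshold (log2 fold change −0.43, SE 0.16, adjusted p = 0.0478) and was lost with RLE normalization (adjusted p = 0.0505). It was also lost on leaving out any 1 bear (adjusted p of 0.0517 to 0.112). Without bears 1305, 1316, 1509, 1511 or 1512 in turn the log2 fold change was −0.49 to −0.40. The log2 fold change was −0.26 without bear 1317, whose summer library held the 5.27. The summed level of the endothelial markers was lower in winter (above), and its part in the change of MAP3K3 was not tested.

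Of the 9 MAP3Ks that did not pass, MAP3K11, or MLK3, had the log2 fold change farthest from 0, −0.62 (SE 0.23, adjusted p = 0.0518). It had levels of 2.82 to 3.82 log2 CPM in summer (median 3.27) and of 1.86 to 3.09 in winter (median 2.80), and was lower in 5 of 6 bears. It lay just beyond the threshold and was called lower in 7 of 14 alternatives, among them DESeq2 with the block (adjusted p = 0.0293), edgeR without the block (adjusted p = 0.0362) and no filter on low counts (adjusted p = 0.0331). MAP3K21 (log2 fold change −0.48, adjusted p = 0.0735, lower in 6 of 6 bears) and MAP3K13 (−0.41, adjusted p = 0.0909) also had negative values. The remaining log2 fold changes were −0.00 for MAP3K15, 0.06 for MAP3K1, 0.14 for MAP3K4, 0.34 for MAP3K9, 0.34 for MAP3K10 and 0.44 for MAP3K6 (adjusted p = 0.217), and without bear 1509 MAP3K13 (−0.56, adjusted p = 0.0143) and MAP3K6 (0.68, adjusted p = 0.033) passed.

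Of the 7 MAP2K genes, 3 were lower in winter and none higher, a share of 42.9% called against 40.8% of all genes. Both kinases dedicated to p38 were among those lower in winter. MAP2K6 (MKK6) showed the greatest fall of the 62 genes. Its levels were 2.61 to 3.36 log2 CPM in summer (median 3.05) and 0.82 to 2.26 in winter (median 1.37), on 40 to 255 reads per library. All 6 winter libraries lay below all 6 summer libraries, the bears differed by −2.22 to −0.92 on the log2 scale, and the winter level was 0.336 of the summer level (log2 fold change −1.57, SE 0.20, adjusted p = 0.000217). MAP2K3 (MKK3), the other p38-activating kinase, had levels of 6.69 to 7.21 log2 CPM in summer (median 7.07) and of 6.52 to 6.92 in winter (median 6.73). The fall was small and present in all 6 bears, by 0.05 to 0.66 (fold of 0.801, SE 0.11 on the log2 scale, adjusted p = 0.0435). The call of MAP2K3 was lost without a filter on low counts (adjusted p = 0.054) and without bears 1305, 1316, 1317, 1509 or 1511 (adjusted p of 0.0589 to 0.115).

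The ERK-activating MAP2K1 (MEK1) and MAP2K2 (MEK2) gave a call for MAP2K2 only. MAP2K2 had levels of 4.87 to 5.25 log2 CPM in summer (median 5.01) and of 4.13 to 4.87 in winter (median 4.39), with a fold of 0.68 (SE 0.12 on the log2 scale, adjusted p = 0.00435) and a lower winter level in all 6 bears. MAP2K1 had levels of 4.79 to 6.52 log2 CPM in summer (median 5.05) and of 4.57 to 6.62 in winter (median 4.91), and its log2 fold change was 0.02 (SE 0.33, adjusted p = 0.966). The wide error of MAP2K1 came with single libraries that stood high, the summer library of bear 1305 at 6.52 log2 CPM and the winter libraries of bears 1317 and 1509 at 6.62 and 5.77, so that the bears differed by −1.65 to 1.40. MAP2K5, which activates ERK5, had levels of 3.70 to 4.25 log2 CPM in summer (median 3.94) and of 4.11 to 4.41 in winter (median 4.19). It was higher in all 6 bears but did not pass (log2 fold change 0.28, SE 0.11, adjusted p = 0.0591). The JNK-activating MAP2K4 had levels of 5.22 to 5.55 log2 CPM in summer (median 5.36) and of 5.30 to 5.73 in winter (median 5.55) and did not pass (log2 fold change 0.17, SE 0.11, adjusted p = 0.252). Nor did its partner MAP2K7 (0.20, adjusted p = 0.431), which was called higher without bear 1509 (0.43, adjusted p = 0.018).

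Of the 12 MAPK genes, MAPK12 and MAPK6 were lower in winter, a share of 16.7% called against 40.8% of all genes. MAPK12, or p38γ, the p38 isoform that is abundant in skeletal muscle, had levels of 5.82 to 6.14 log2 CPM in summer (median 6.06) and of 5.07 to 5.50 in winter (median 5.25). There was no overlap between the seasons, and each bear was lower in winter, by 0.38 to 1.00 (fold of 0.595, log2 fold change −0.75, SE 0.11, adjusted p = 0.00046). MAPK6, or ERK3, an atypical and unstable kinase, had levels of 5.84 to 6.33 log2 CPM in summer (median 6.23) and of 5.42 to 6.05 in winter (median 5.74), with a fold of 0.747 (SE 0.11 on the log2 scale, adjusted p = 0.0133) and a lower winter level in all 6 bears.

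MAPK3, MAPK8, MAPK9 and MAPK14, which are widely expressed, did not pass the test. MAPK3, or ERK1, had levels of 4.53 to 5.01 log2 CPM in summer (median 4.83) and of 4.72 to 5.29 in winter (median 4.90), with a log2 fold change of 0.13 (SE 0.10, adjusted p = 0.357). The JNK genes MAPK8 and MAPK9 both had small positive values. MAPK8 had levels of 5.21 to 5.51 log2 CPM in summer (median 5.38) and of 5.17 to 5.85 in winter (median 5.55), a log2 fold change of 0.15 (SE 0.12, adjusted p = 0.363). MAPK9 had levels of 5.05 to 5.4 log2 CPM in summer (median 5.21) and of 5.21 to 5.50 in winter (median 5.38), a log2 fold change of 0.17 (SE 0.10, adjusted p = 0.178). For MAPK14, or p38α, the target of most p38 inhibitors, the winter range of 6.22 to 6.44 log2 CPM (median 6.30) lay within the summer range of 6.0 to 6.48 (median 6.35), with a log2 fold change of 0.01 (SE 0.11, adjusted p = 0.962). With standard errors of this size, small changes of these kinases were not detectable.

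The other MAPK genes had smaller counts or wider spreads. MAPK13, or p38δ, had 3 to 49 reads per library, with levels of −0.84 to 1.19 log2 CPM in summer (median 0.14) and of −2.26 to 1.6 in winter (median −1.02), and the greatest change among the MAPKs that did not pass (log2 fold change −0.96, SE 0.50, adjusted p = 0.151). It was called lower without bear 1511 (−1.51, adjusted p = 0.0256). MAPK10, or JNK3, the JNK of nervous tissue, had 28 to 377 reads per library, with levels of 0.85 to 1.63 log2 CPM in summer (median 1.20) and of 0.73 to 4.38 in winter (median 1.12). A single library, the winter library of bear 1509, held the 4.38, and the other winter libraries lay at 0.73 to 1.62, within or near the summer range. The log2 fold change of MAPK10 was 0.37 (SE 0.42, adjusted p = 0.5), 1.14 without the block and −0.11 without bear 1509 (adjusted p = 0.725). The summed level of the Schwann cell markers was 156.4 CPM in that library, 43.84 to 87.48 CPM in the other winter libraries and 48.91 to 105.4 CPM in summer, and its part in the value was not tested. MAPK11, or p38β, was lower in all 6 bears without passing (log2 fold change −0.21, adjusted p = 0.227), MAPK7, or ERK5, gave −0.20 and MAPK4 gave −0.61 on 2 to 21 reads per library (adjusted p = 0.255).

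**Figure D3:**
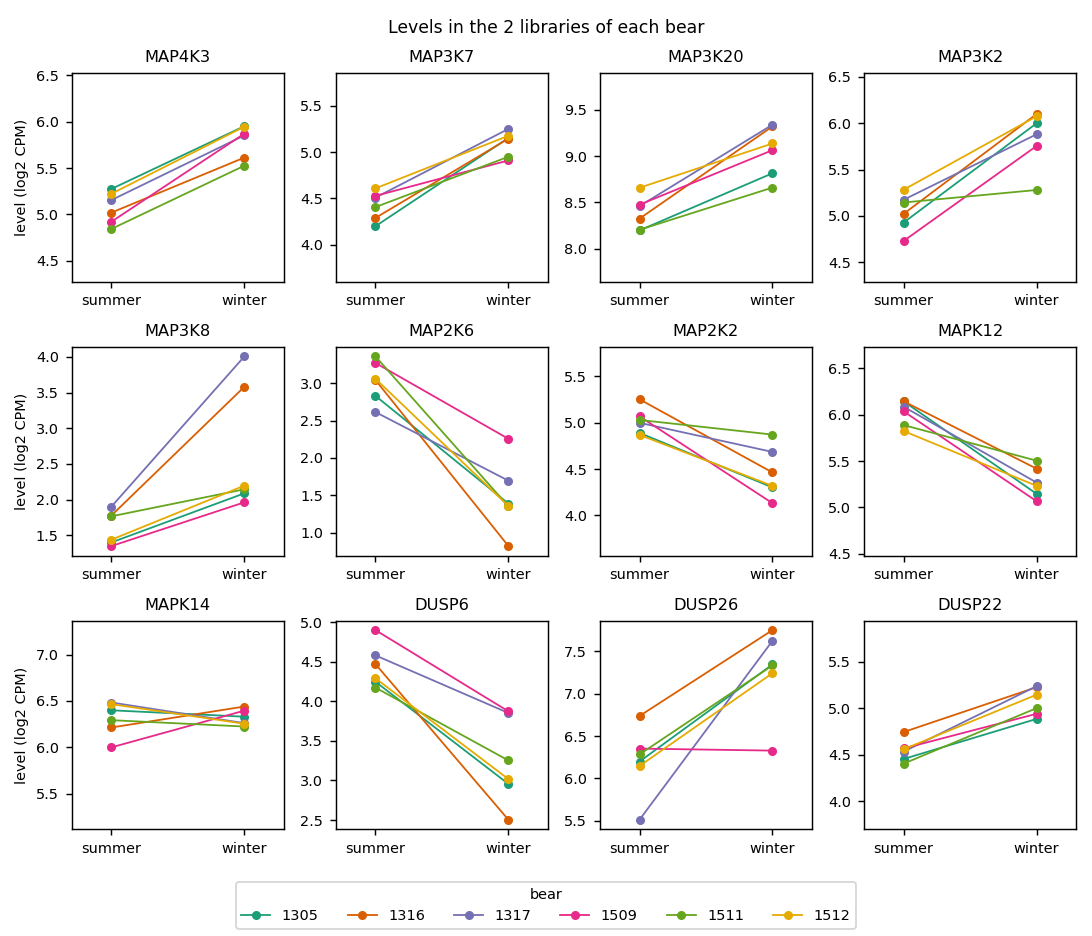
Levels (log2 CPM, y axis) of selected kinases and phosphatases in summer and winter, with a line for each of the 6 bears and a scale of its own for each gene. MAP2K6, MAPK12 and DUSP6 fell in every bear, MAP4K3, MAP3K7, MAP3K20 and DUSP22 rose in every bear, the lines of MAPK14 cross, and DUSP26 was level in bear 1509.

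Related genes of the same tier were compared within bears in 6 pairs, chosen with their values known. The test was an exact two-sided sign-flip permutation test, whose smallest possible p with 6 bears is 0.03125. The difference between winter and summer was more negative for MAPK12 than for MAPK14 in 6 of 6 bears, by 0.76 ± 0.40 on the log2 scale (SD, n = 6, exact p = 0.03125, 0.09375 after adjustment over the 6 pairs). It was more negative for MAP2K6 than for MAP2K3 in 6 of 6 bears, by 1.23 ± 0.75 (SD, n = 6, exact p = 0.03125, adjusted 0.09375). Neither pair passed after adjustment. At the smallest p, a pair can pass adjustment over 6 pairs only where most pairs reach that p. Both pairs were at the smallest p that 6 bears allow, but the pairs were chosen with their values known, so no conclusion is drawn from this. The difference of MAPK8 lay within −0.24 to 0.26 of that of MAPK9 in the 6 bears (mean −0.03, exact p = 0.96875). MAP2K1 against MAP2K2 (0.57 ± 1.09 SD, exact p = 0.28125) and MAP2K4 against MAP2K7 (−0.02, exact p = 0.9375) did not pass either.

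Of the 20 DUSP genes, DUSP6 and DUSP19 were lower and DUSP26 and DUSP22 higher in winter. This was a share of 20% called, against 40.8% of all genes. DUSP6, or MKP-3, a cytoplasmic phosphatase selective for ERK whose transcription is itself induced by ERK signalling, had levels of 4.17 to 4.90 log2 CPM in summer (median 4.38) and of 2.50 to 3.87 in winter (median 3.14). The seasons did not overlap and the bears fell by 0.73 to 1.97 on the log2 scale, to 0.434 of the summer level by the fit (log2 fold change −1.20, SE 0.16, adjusted p = 0.000236). DUSP26, an atypical phosphatase known from neural and muscle tissue, had levels of 5.51 to 6.74 log2 CPM in summer (median 6.24) and of 6.33 to 7.75 in winter (median 7.34). It was 2.09-fold higher (log2 fold change 1.07, SE 0.21, adjusted p = 0.00264), with a rise in 5 of 6 bears and a difference of −0.02 in bear 1509. DUSP22, an atypical phosphatase that acts on JNK signalling, had levels of 4.40 to 4.74 log2 CPM in summer (median 4.55) and of 4.89 to 5.24 in winter (median 5.07). It rose in each bear by 0.37 to 0.71, with no overlap (1.45-fold, SE 0.10 on the log2 scale, adjusted p = 0.00156). DUSP19 rested on 12 to 60 reads per library, with levels of 0.46 to 1.28 log2 CPM in summer (median 0.89) and of −0.31 to 1.13 in winter (median 0.04), a fold of 0.609 (SE 0.23, adjusted p = 0.0301) and an adjusted p of 0.0619 without the block, 0.0613 by DESeq2 with the block and 0.0538 to 0.0905 without bears 1305, 1317, 1511 or 1512.

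The inducible nuclear MAP kinase phosphatases, which are immediate-early genes, did not pass. DUSP1, or MKP-1, had levels of 5.27 to 7.22 log2 CPM in summer (median 5.70) and of 4.56 to 6.88 in winter (median 5.79), and the 6 bears differed by −1.57 to 1.49 (log2 fold change −0.37, SE 0.34, adjusted p = 0.401). Without bear 1317, which had the greatest winter excess (1.49), it was called lower (−0.72, adjusted p = 0.0432). DUSP5 had the greatest change among the DUSPs that did not pass, on 2 to 40 reads per library, with levels of −2.02 to 0.72 log2 CPM in summer (median −0.56) and of −2.57 to 0.28 in winter (median −1.57, log2 fold change −0.61, SE 0.61, adjusted p = 0.453). DUSP2 (log2 fold change 0.33) and DUSP4 (0.39, adjusted p = 0.407) complete this group. Among the phosphatases that prefer JNK and p38, DUSP10 gave −0.38 (adjusted p = 0.0951), DUSP8 −0.02 and DUSP16 0.22. DUSP7, the relative of DUSP6, gave −0.13. The uncalled atypical members were DUSP23 at −0.55 (adjusted p = 0.0741), DUSP14 at −0.35, DUSP27 at −0.25, DUSP28 at −0.13, DUSP3 at −0.01, DUSP18 at 0.00, DUSP12 at 0.08 and DUSP11 at 0.18.

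Bears differed in how far single genes moved. The median difference between winter and summer over the 62 genes was −0.18 to 0.11 on the log2 scale in the 6 bears, and that over the 12 MAPKs was negative in all 6 (−0.26 to −0.07). In bear 1317 the winter library exceeded the summer library by 2.24 for MAP3K7CL, 2.11 for MAP3K8, 2.11 for DUSP26, 2.00 for DUSP5, 1.49 for DUSP1 and 1.40 for MAP2K1, in each case the greatest rise among the 6 bears. The winter library of bear 1509 held the lowest winter level of 18 of the 62 genes and the highest of 12. The other winter libraries each held the lowest level of 7 to 13 genes and the highest of 4 to 14. Among bears, the SD of the log2 CPM had a median over the 62 genes of 0.286 for summer and 0.295 for winter, against 0.322 and 0.351 over all genes tested.

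**Figure D4:**
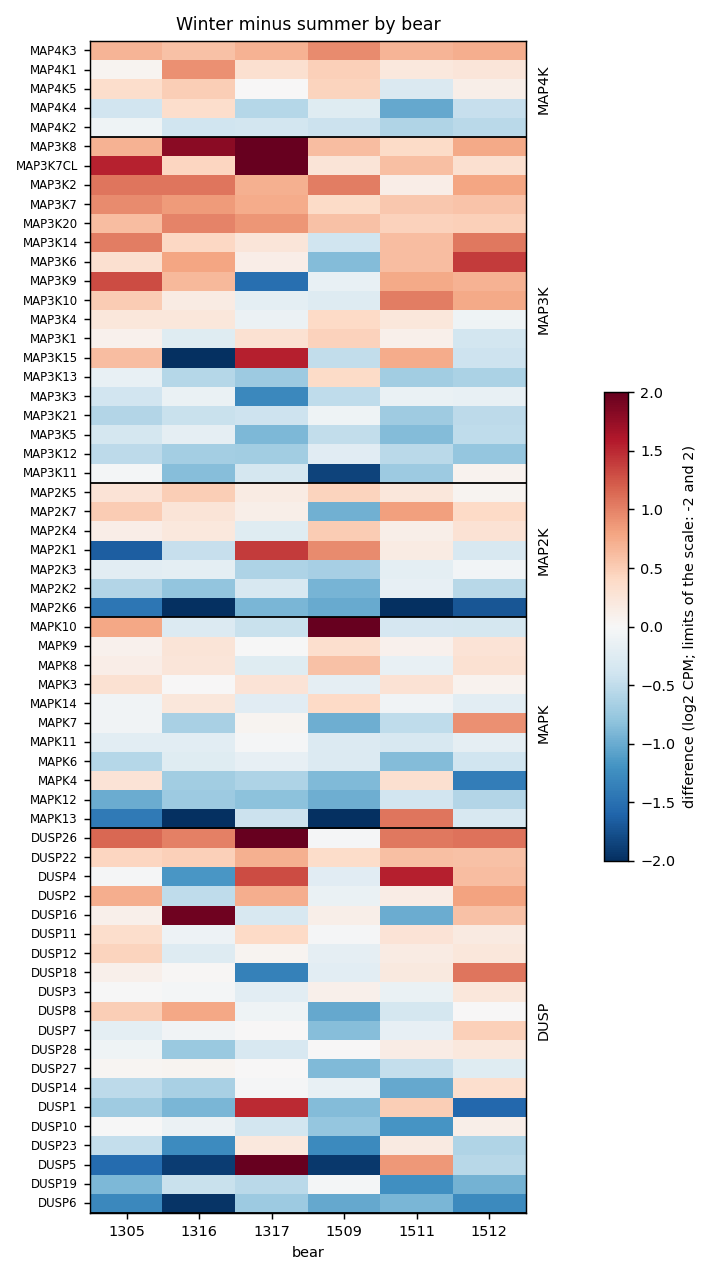
Difference between winter and summer (log2 CPM) of 61 of the genes (vertical axis, by tier) in each of the 6 bears (horizontal axis), as colour, with values beyond −2 and 2 drawn at the ends of the scale. MAP2K6, MAPK12 and DUSP6 are negative in all 6 bears, and bear 1317 has the greatest rises of MAP3K8, DUSP1 and DUSP5.

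The surrounding pathway, in lists written by role, was called in both directions. The share called in either direction was 47.6% for RAS and RAF genes and their regulators, 38.1% for scaffolds and adaptors, 60% for kinases that MAP kinases activate, 50% for feedback inhibitors and other phosphatases and 44.4% for transcription factors, against 40.8% of all genes (19.6% higher, 21.2% lower), and a difference from all genes was not tested. Among 21 RAS and RAF genes and their regulators 5 were higher and 5 lower (median log2 fold change 0.18). RASA2, a RAS-inactivating protein (0.77, adjusted p = 0.00134), the adaptor GRB2 (0.44, adjusted p = 0.0056) and NRAS (0.43, adjusted p = 0.00841) were higher. ARAF, a kinase that activates the MEKs (−1.13, adjusted p = 0.000196), the RAS exchange factor SOS1 (−0.47, adjusted p = 0.00792) and the RAF inhibitor PEBP1 (−0.46, adjusted p = 0.00804) were lower. Of 21 scaffolds and adaptors 3 were higher and 5 lower (median −0.12). GADD45A, a stress-induced protein that binds MAP3K4 (1.11, adjusted p = 0.000201), and TRAF6 and TAB3, which act with MAP3K7 (0.83, adjusted p = 0.00125, and 0.48, adjusted p = 0.00606), were the higher ones. MAPK8IP1, a JNK scaffold (−1.03, adjusted p = 0.000898), ARRB1 (−0.59, adjusted p = 0.00167) and the ERK scaffold IQGAP1 (−0.42, adjusted p = 0.0114) were lower.

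Of 10 kinases that MAP kinases activate, 3 were higher and 3 lower (median log2 fold change 0.10). RPS6KA5, or MSK1 (0.97, adjusted p = 0.00016), MKNK1 (0.71, adjusted p = 0.00321) and MAPKAPK5 (0.40, adjusted p = 0.0212) were higher. MAPKAPK2, the main effector kinase of p38 (−0.62, adjusted p = 0.00115), and the ribosomal S6 kinases RPS6KA2 (−0.54, adjusted p = 0.00376) and RPS6KA1 (−0.67, adjusted p = 0.0224) were lower. Among 20 feedback inhibitors and other phosphatases 3 were higher and 7 lower, with a median of −0.47. SPRY4, a Sprouty inhibitor that ERK signalling induces, had few reads (8 to 135 per library). Its levels were 1.62 to 2.59 log2 CPM in summer (median 1.90) and −1.27 to 0.68 in winter (median −0.34). It fell in 6 of 6 bears (log2 fold change −2.37, SE 0.31, adjusted p = 0.000253). SPRY2 was lower as well (−1.09, adjusted p = 0.00166), and so was STYXL1, a catalytically inactive relative of the DUSPs (−1.67, adjusted p = 0.000243). The adjusted p of STYXL1 was 0.063 without the block. The other Sprouty genes were not called. SPRY1, on 679 to 1949 reads per library, gave a log2 fold change of −0.07 (adjusted p = 0.75). SPRY3, on 3 to 31 reads per library, gave −1.13 (adjusted p = 0.0622). The catalytic subunits of protein phosphatase 2A, PPP2CB (0.59, adjusted p = 0.00108) and PPP2CA (0.61, adjusted p = 0.00318), and the pseudophosphatase STYX (0.50, adjusted p = 0.00584) were higher. Of 18 transcription factors that MAP kinases phosphorylate, 6 were higher and 2 lower (median 0.07). The p38 and ERK5 targets MEF2C (1.13, adjusted p = 0.000118) and MEF2A (0.92, adjusted p = 0.000438), with ELK4 (0.50, adjusted p = 0.00321), were higher, and ETS1 (−0.90, adjusted p = 0.000847) and NFATC4 (−0.84, adjusted p = 0.00359) were lower. The values of the 29 called genes named from these lists are log2 fold changes of winter over summer from the same edgeR fit. Their standard errors were 0.1 to 0.314, and each of these 29 genes moved in its direction in 6 of 6 bears.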

How the data were processed

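Stranded single-read RNA-seq libraries of 6 bears in 2 seasons were sequenced by the authors and aligned to ASM358476v1. The submitters' processing notes name bcl2fastq 2.20, FastQC 0.11.5, TopHat2 2.1.1, Bowtie2 2.2.9, SAMtools 1.9 and featureCounts 1.6.2. The deposited values are read counts per gene, whole numbers that were neither normalized nor filtered. Counts of close paralogues may be shared where reads align to both, and the labels do not assign sequencing lanes, so a lane effect was not tested.

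Genes with at least 30 reads over the 12 libraries were kept (17290), which dropped 0.019% of the reads. Counts were scaled by TMM and tested with edgeR 4.0.16 (glmQLFit, glmQLFTest, R 4.3.3), with bear and season as terms. Log2 CPM values carry a prior count of 2 and are not scaled to gene length, so levels are not compared between genes. The bear was a block because, by the study's methods, each animal was biopsied in winter and in summer. Within a bear, the correlation of the deviations from the seasonal mean was 0.0903 to 0.344, and between different bears it ran from −0.214 to 0.142 (median −0.0634), so the ranges overlapped. Libraries of a season differed well beyond counting noise (lowest chi-square per gene 35.8), so none was a copy. Alternatives were the fit without the block, DESeq2 1.42.0 with and without it, limma 3.58.1 (voom), RLE, library totals, no filter, filterByExpr, stricter limits and each bear left out. The fits were also run on simulated data in which fewer genes changed than were called here. Many called changes here were smaller than the simulated ones, so no conclusion is drawn from that run.

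The members and lists were chosen with earlier results of these data known. All members may be named. Season ranges are given for up to 4 called genes per tier and direction with the smallest adjusted p, for MAPK3, MAPK8, MAPK9, MAPK14, MAPK12, MAP2K1, MAP2K3, MAP2K4, MAP2K6, MAP3K7, DUSP1 and DUSP6, and for the uncalled gene of each tier with the greatest change. Up to 3 called genes per direction are named from each other list, with the uncalled SPRY1 and SPRY3 beside SPRY4. The ranges of MAPK10 and SPRY4 were added after their values were seen. No sequence is printed. The values of 1 gene of the set, and of a pair that holds it, are not reported here; it stays in the counts and medians.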

Additional observations from a re-analysis of the deposited data

Results flagged for a closer look

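A library is listed here where the gap between its level and the closest other level of the same season, as a share of that season's range over 6 libraries, exceeded Dixon's 95% critical value of 0.625. This held for 13 of 124 combinations of gene and season, of which 6 were in bear 1509, and chance alone gives about 1 in 20. In the winter library of bear 1509, MAPK10 was high at 4.38 log2 CPM (others 0.73 to 1.62), whereas DUSP26 at 6.33 (7.24 to 7.75), DUSP7 at 2.53 (3.26 to 3.61), MAP3K11 at 1.86 (2.63 to 3.09) and MAP3K6 at 0.11 (1.62 to 1.96) were low, and in its summer library DUSP3 was low at 6.74 (7.0 to 7.14). In summer, MAP2K1 was high in bear 1305 at 6.52 (4.79 to 5.27), MAP3K3 was high in bear 1317 at 5.27 (4.28 to 4.63) and DUSP28 was high in bear 1316 at 4.39 (3.51 to 3.75). Low summer levels were those of MAP4K4 in bear 1316 at 6.47 (6.97 to 7.06), of MAP2K3 in bear 1512 at 6.69 (7.02 to 7.21) and of MAPK7 in bear 1512 at −0.34 (0.32 to 0.72). In winter, MAP3K10 was high in bear 1511 at 2.51 (1.85 to 2.05).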

How the results depend on the processing

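Of the 20 called genes, 14 kept their call under all 14 alternatives that left the threshold as it was: MAP4K3, MAP3K2, MAP3K7, MAP3K8, MAP3K20, DUSP22 and DUSP26 higher, and MAP2K2, MAP2K6, MAP3K5, MAP3K12, MAPK6, MAPK12 and DUSP6 lower. Of the 42 others, 9 were called in at least 1 alternative and 33 in none, of which DUSP5, DUSP18 and MAPK4 were not tested under filterByExpr. Without the replicate block the counts were again 9 higher and 11 lower, but DUSP19 and MAP4K2 lost their call and MAP3K11 and MAP4K4 gained one, so that 1 DUSP was lower, and no other call among the 62 genes changed. In the other lists STYXL1 lost its call without the block, and the counts became 4 higher and 4 lower for scaffolds and 3 higher and 6 lower for feedback inhibitors. With an adjusted p below 0.01 and a fold above 1.3 or below 0.77, 7 genes were higher and 6 lower, with 1 MAPK, 1 DUSP and 0 MAP4Ks lower. DESeq2 gave 2 MAP4Ks lower with and without the block and 1 DUSP lower with it, and DESeq2 without the block and filterByExpr each called 1 MAP2K, MAP2K5, higher. Leaving out each bear in turn gave 1 to 3 DUSPs lower, 0 to 1 MAP2Ks higher, 0 to 2 MAP4Ks lower, 3 to 5 scaffolds lower and 3 to 5 RAS and RAF genes lower. Over all genes tested, these fits called 2619 to 3542 higher and 3001 to 3677 lower, against 3392 and 3663 with all 6 bears. Library totals moved the median log2 fold change of all genes to −0.08 and that of the 62 genes to −0.07, left 3 RAS and RAF genes higher and turned the uncalled MAP2K1 (−0.0559) and MAPK14 (−0.0708). With library totals 2700 genes were called higher and 4083 lower of all tested, against 3392 and 3663 with TMM. MAPK14 was at −0.0055 with no filter, and with each bear left out it ran from −0.0586 to 0.0556, MAP2K1 from −0.26 to 0.33 and MAPK10 from −0.11 to 0.55. The cause of these changes was not tested. Genes with few reads, DUSP5, DUSP19, MAPK4, MAPK13 and MAP4K1, have wide errors at this depth.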
